A study of Mus musculus with 12 samples.

Results

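The 34 genes described here carry glucose into the cell, convert it to pyruvate and lactate, export the lactate with its acid, and sense low oxygen or answer to it. They were taken by gene symbol from the pathway, with no measured value in the rule, but were chosen with earlier results of these data known. The list was therefore not blind to the data, which limits the counts below. They are 34 of the 55385 gene identifiers in the count table. All 34 passed the filter on low counts, which left 15283 genes for testing.

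Expression was measured by RNA sequencing in 12 libraries of cells from C57BL/6 mice, 4 in each of 3 groups. HPmECC and mECC are endometrial cancer cell lines, and the normal group is endometrial cells in primary culture. The sample titles carry the code WT in HPmECC, DM in mECC and B6 in normal cells. These codes served to match columns to samples, and no genotype was read from them. Per the series text, cancer cells with and without added Myc were used, but no label ties the addition to either line. How each line was derived, whether it is 1 clone, what drives the added Myc, and the oxygen and glucose of the medium are not stated in the labels.

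Glycolysis splits glucose into pyruvate, and lactate dehydrogenase turns pyruvate into lactate so that glycolysis can go on without oxygen. The lactate leaves with a proton through monocarboxylate transporters, and membrane carbonic anhydrases buffer the acid outside the cell. When oxygen is scarce, prolyl hydroxylases no longer mark the HIF alpha subunits for destruction, and the stabilised factor raises many glycolytic genes. The transcription factor Myc is known to raise an overlapping set of these genes.

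Promoters were searched for the core of the HIF binding element because both uptake and export genes of the list are textbook HIF targets. The motif ACGTG, searched on both strands of the 300 bases around each start site, was found for 20 of the 31 members with a RefSeq promoter entry (64.5%), against 28.7% of the 11157 tested genes with an entry. A gene counted if any of its windows held the motif, so genes with more start sites had more chances to match. Counted by window, 23 of the 44 member windows held it, against 19.6% of the 32851 windows of all genes, tested or not. The second form, GCGTG, was found for 61.3% of these members, against 54.7% of tested genes. CACGTG, the E-box that Myc is known to bind, contains ACGTG on both strands and was found for 6 members (19.4%), against 11.4% of tested genes. Slc2a3, Epas1 and Ndrg1 were not matched. The promoters of 5 members follow, from RefSeq on GRCm38.p6 and written 5′ to 3′ along the gene, with ACGTG on either strand in capitals. They are the transporters Slc16a3 and Slc2a1, the oxygen sensor Egln3, and the lactate dehydrogenase genes Ldha and Ldhb. In HPmECC against mECC only Ldhb of these fell and the others rose, and all 5 were lower in mECC than in normal cells. With a single falling gene, these windows cannot relate the motif to a direction of change.
Slc16a3 (chr11:120948817-120949116, plus strand): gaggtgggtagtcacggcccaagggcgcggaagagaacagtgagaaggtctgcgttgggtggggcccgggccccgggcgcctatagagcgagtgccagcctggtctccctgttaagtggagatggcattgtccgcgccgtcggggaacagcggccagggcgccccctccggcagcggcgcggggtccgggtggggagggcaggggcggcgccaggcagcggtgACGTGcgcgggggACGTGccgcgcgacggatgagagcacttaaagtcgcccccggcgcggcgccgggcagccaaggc
Slc2a1 (chr4:119108495-119108794, plus strand): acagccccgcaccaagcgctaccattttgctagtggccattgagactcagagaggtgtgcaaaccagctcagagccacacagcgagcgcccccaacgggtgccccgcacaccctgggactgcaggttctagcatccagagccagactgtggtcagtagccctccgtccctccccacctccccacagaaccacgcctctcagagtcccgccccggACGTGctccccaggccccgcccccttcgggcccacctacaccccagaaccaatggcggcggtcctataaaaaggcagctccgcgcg
Egln3 (chr12:54203825-54204124, minus strand): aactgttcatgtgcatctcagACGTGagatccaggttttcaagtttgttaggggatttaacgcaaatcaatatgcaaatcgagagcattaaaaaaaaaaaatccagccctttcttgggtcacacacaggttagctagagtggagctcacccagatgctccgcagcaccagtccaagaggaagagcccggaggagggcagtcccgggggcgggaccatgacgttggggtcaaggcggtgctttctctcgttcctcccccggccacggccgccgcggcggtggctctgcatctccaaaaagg
Ldha (chr7:46845554-46845853, plus strand): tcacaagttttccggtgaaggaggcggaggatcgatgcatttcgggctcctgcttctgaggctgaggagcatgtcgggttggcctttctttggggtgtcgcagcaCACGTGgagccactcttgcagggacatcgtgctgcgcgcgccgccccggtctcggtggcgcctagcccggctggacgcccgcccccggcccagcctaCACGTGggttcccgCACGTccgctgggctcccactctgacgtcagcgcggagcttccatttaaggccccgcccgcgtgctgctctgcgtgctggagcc
Ldhb (chr6:142507908-142508207, minus strand): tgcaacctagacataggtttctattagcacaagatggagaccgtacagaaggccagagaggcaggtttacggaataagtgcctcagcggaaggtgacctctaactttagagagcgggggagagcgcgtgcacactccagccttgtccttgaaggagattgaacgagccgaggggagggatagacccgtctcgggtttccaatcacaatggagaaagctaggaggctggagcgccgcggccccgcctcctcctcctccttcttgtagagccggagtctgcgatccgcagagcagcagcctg
The windows of Slc16a3, Slc2a1 and Egln3 held the motif, as did that of Ldha at 5 places, 4 of them paired in 2 copies of CACGTG. The Ldhb window held no ACGTG and 1 GCGTG. Hif1a and Hk2, which fell in HPmECC against mECC, held ACGTG, and Pfkp and Pdk1, which rose, did not. A match describes these letters and does not show that a factor binds there. On GRCm38 the gene Slc16a3 (ENSMUSG00000025161) lies at chr11:120948480-120960868, Slc2a1 (ENSMUSG00000028645) at chr4:119108711-119137983, Egln3 (ENSMUSG00000035105) at chr12:54178981-54203860, Ldha (ENSMUSG00000063229) at chr7:46841475-46855627 and Ldhb (ENSMUSG00000030246) at chr6:142490249-142507957, and all are protein-coding. RefSeq lists 2 start sites for Ldha, and the upstream one is shown. The window of the downstream start site held no ACGTG and no CACGTG.

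The libraries held 18402202 to 26873582 counts in HPmECC, 21755275 to 25821106 in mECC and 16332060 to 24202564 in normal cells. Myc itself averaged 266 ± 24.0 CPM in HPmECC, 59.4 ± 2.09 in mECC and 111 ± 5.05 in normal cells. The summed level of 12 epithelial markers ran from 355.13 to 373.21 TPM in HPmECC, from 1648.8 to 1704.4 TPM in mECC and from 7988.5 to 8365.8 TPM in normal cells. Of these markers, Cdh1 and Epcam averaged 0.395 and 0.358 TPM in HPmECC and were near absent from that line. In mECC they stood at 42.3 and 104.7 TPM, and in normal cells at 284 and 429 TPM. Other markers of the list fell less. The keratin genes Krt8, Krt18 and Krt19 were 1.67-fold, 1.85-fold and 3.42-fold lower in HPmECC than in mECC, though the keratin gene Krt7 was 19.6-fold lower. The sum of 10 fibroblast and stromal markers, led by Vim, was 5579.3 to 5822.6 TPM in HPmECC, 5156.1 to 5615.8 TPM in mECC and 1068 to 1309.4 TPM in normal cells. Sums of 6 smooth muscle markers were 201.47 to 283.49 TPM in HPmECC, 59.93 to 62.29 TPM in mECC and 2332.2 to 2832.3 TPM in normal cells. Normal cells thus had the highest epithelial and smooth muscle sums, and both lines the higher stromal sums. In both lines 6 of the 10 stromal markers were higher than in normal cells and 4 were lower, the 4 being Thy1, Col1a2, Dcn and Lum. Over all tested genes, 42.1% were higher and 44.2% lower in mECC, and 43% and 43.3% in HPmECC. The split is therefore not read as a trait of these markers. Leukocyte (8 genes), endothelial (6) and mesothelial (5) sums were also highest in normal cells, at 258.26 to 277.68, 39.68 to 45.42 and 359.78 to 388.03 TPM, against at most 25.48, 2.62 and 11.8 TPM in HPmECC and 17, 1.47 and 44.64 TPM in mECC. The leukocyte marker Ptprc averaged 0 TPM in HPmECC and 0.408 TPM in normal cells, and 5 red blood cell markers summed to at most 1.38 TPM in any library. In bulk RNA, fewer cells of a type and less RNA per cell cannot be told apart, so a difference from the normal culture can be of either kind. The part of the markers in the results was not tested.

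HPmECC replicate 4 stood apart from the other HPmECC libraries, in these genes and beyond them. Its chi-square per gene, a measure of how far the counts of a library pair differ, was 6.39 to 7.09 with the other HPmECC libraries. Pairs without it stood at 2.58 to 3.98. It had the highest CPM of its group in 25 of the 34 members and the lowest in 5. Over all tested genes it was highest in 29.4% and lowest in 27.9%. Its median ratio to the mean of the other 3 libraries was 1.20 in the members and 0.999 over all tested genes. Its Myc level was also the highest, at 301.7 CPM beside 248.5 to 257.7 CPM in the other 3. Counts of called members are therefore given with and without this library. Nothing in the labels says that libraries of 1 group came from different cultures or animals, and p-values accordingly describe the variation among these libraries, which may be technical.

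Between the cancer lines, most of the module was higher in HPmECC than in mECC. Of the 34 members, 30 rose in HPmECC (background 33.8% of all tested genes) and 3 fell (background 34.5%), at an edgeR adjusted p under 0.05. The 3 that fell were Hk2, Ldhb and Hif1a, and the member that did not pass was Adm. In 30 members every HPmECC library lay above every mECC library, but how often this held over all tested genes was not counted. The median log2 fold change of the members was 0.60, beside 0.00 over all tested genes, and 10 members rose at least 2-fold (background 6.73%) while none fell by as much (background 9.4%). Those 10 were Slc2a3, Pfkp, Aldoc, Eno2, Car9, Car12, Epas1, Egln3, Bnip3 and Ankrd37. Without HPmECC replicate 4, 30 rose and 3 fell, and 9 rose at least 2-fold because Bnip3 then stood at a log2 fold change of 0.998, just under the limit. The background shares without that library were not counted. In the same comparison all 12 epithelial markers fell (background 34.5%) and 4 of 6 smooth muscle markers rose (background 33.8%). Their part in the result was not tested.

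Against normal cells, the lines differed from each other in how the module stood. In mECC, 6 members were higher than in normal cells (background 42.1%) and 25 were lower (background 44.2%), with 5 higher (background 18.4%) and 15 lower (background 22.8%) by at least 2-fold and a median log2 fold change of -0.84 beside -0.02 over all genes. In HPmECC, 14 were higher than in normal cells (background 43%) and 13 were lower (background 43.3%), with 5 higher (background 18.5%) and 9 lower (background 23%) by at least 2-fold and a median of 0.01 beside 0.00. Without HPmECC replicate 4, the HPmECC counts were 13 higher and 17 lower: Ldha, Car9, Egln3 and Pfkl then passed as lower and Egln1 no longer passed. The share of all tested genes called without that library was not counted, so this shift has no background beside it. These comparisons share the normal libraries and are given side by side only. Library totals in place of TMM factors moved the median of all genes to 0.22 in mECC and to 0.20 in HPmECC against normal cells. The share of called genes that were higher then became 59.1% in mECC (48.8% with TMM factors) and 58% in HPmECC (49.8% with TMM factors). The members called became 9 higher and 21 lower in mECC and 19 higher and 13 lower in HPmECC. Of the 15283 tested genes, 7866 were then called higher and 5453 lower in mECC, and 7725 higher and 5583 lower in HPmECC.

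**Figure D1:**
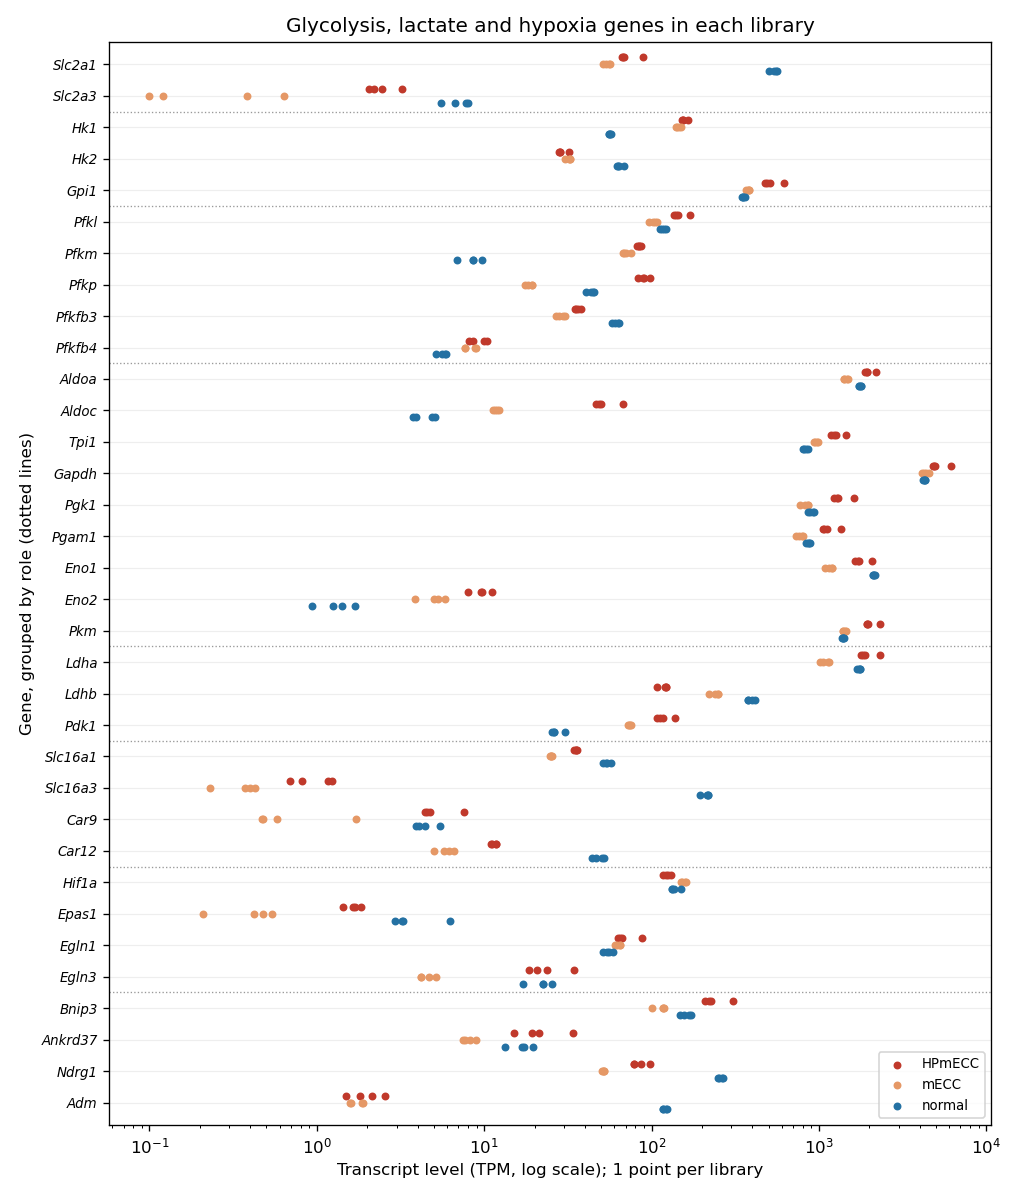
Transcript level of each of the 34 genes in TPM (log axis), 1 point for each library, with HPmECC, mECC and normal cells in rows from top to bottom within each gene and dotted lines between roles. Gapdh is the most abundant in all groups, while Slc16a3 and Adm lie near 1 TPM in both cancer lines and above 100 TPM in normal cells.

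**Figure D2:**
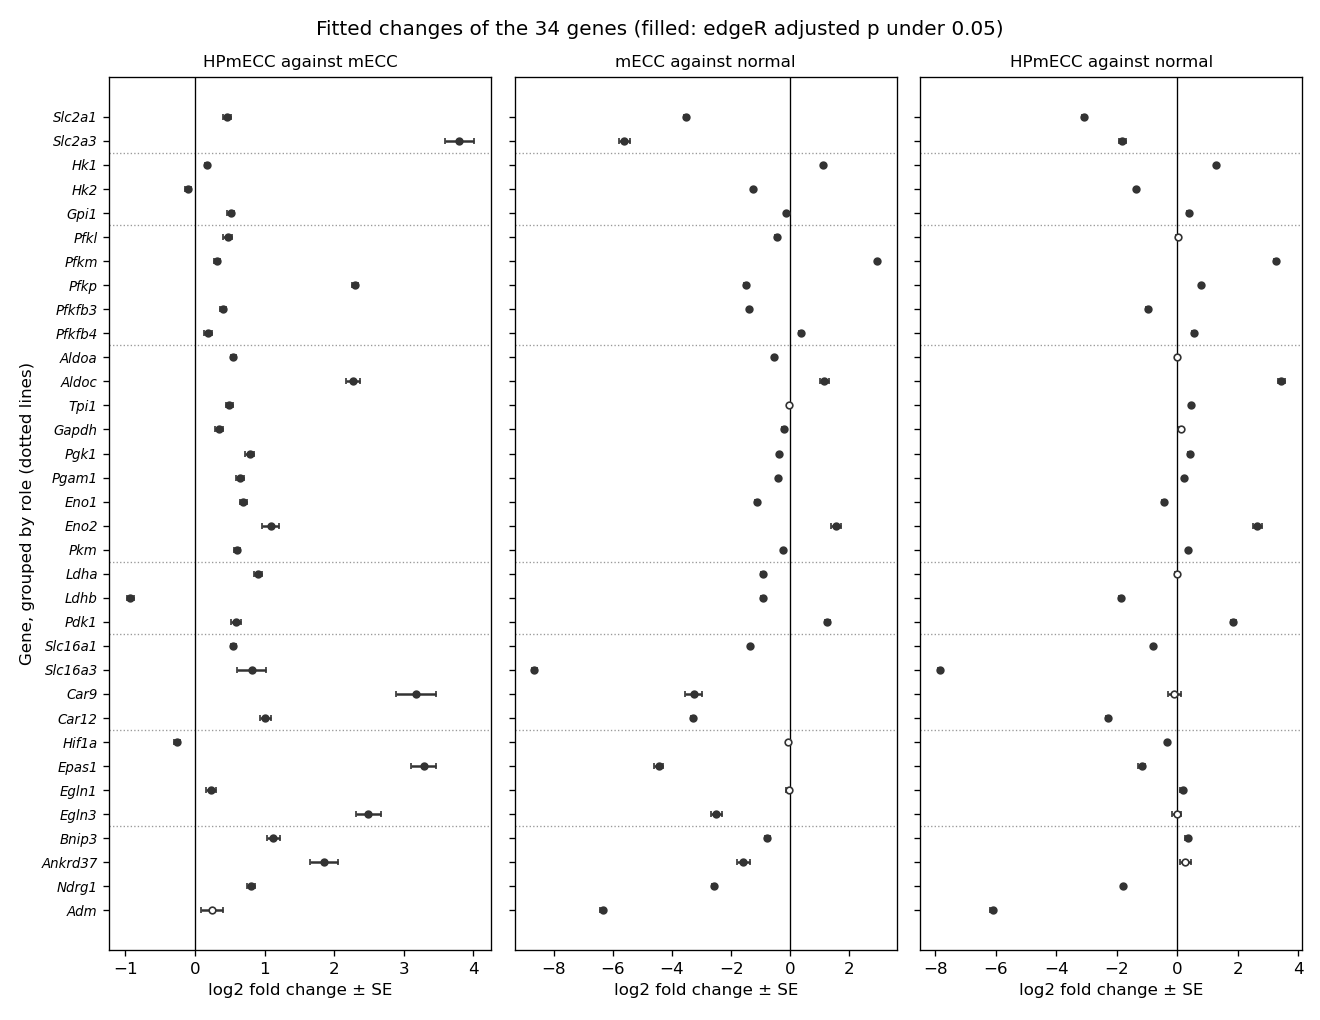
Fitted log2 fold change of each gene with its standard error (bars) in the comparisons of HPmECC against mECC, mECC against normal cells and HPmECC against normal cells; filled points have an edgeR adjusted p under 0.05. In the comparison of HPmECC with mECC, 30 of 34 points are filled and right of 0; with library totals the comparisons with normal cells shift to the right by about 0.2, which turns the sign of Gpi1, Tpi1, Gapdh, Pkm, Hif1a and Egln1 in mECC and of Ldha, Car9 and Egln3 in HPmECC.

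RNA of both glucose transporter genes was lower in the cancer lines than in normal cells. Slc2a1, which encodes the widespread transporter GLUT1, had 109.6, 109, 111 and 140.1 CPM in the 4 HPmECC libraries, 83.7, 86.1, 89.3 and 83.2 in mECC and 996, 1019, 928 and 1031 in normal cells. All cancer libraries lay far under all normal ones, and HPmECC lay above mECC throughout. The log2 fold change was 0.46 ± 0.06 (SE) in HPmECC against mECC (adjusted p = 3.66e-06, edgeR, adjusted over all genes), -3.54 ± 0.07 in mECC against normal cells (adjusted p = 1.11e-19) and -3.08 ± 0.06 in HPmECC against normal cells (adjusted p = 5.79e-19). Slc2a3, the high-affinity transporter GLUT3, had 4.73, 4.04, 4.62 and 4.94 CPM in the 4 HPmECC libraries, 0.214, 0.254, 0.2899 and 0.553 in mECC and 14.6, 16.5, 18.7 and 14.7 in normal cells. It was near absent in mECC, where its counts were 5, 7, 8 and 13, and intermediate in HPmECC, with no overlap between groups. HPmECC exceeded mECC 13.9-fold (adjusted p = 9.86e-12) and was 3.52-fold below normal cells (adjusted p = 1.78e-11). On the per-length scale the gap between the lines was narrower, with 2.48 ± 0.54 TPM in HPmECC, 0.3100 ± 0.25 in mECC and 7.01 ± 1.1 in normal cells.

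At the first steps of glycolysis the hexokinase genes went opposite ways. Hk1, the hexokinase that most tissues express, had 333, 329.6, 337 and 361 CPM in the 4 HPmECC libraries, 294, 296, 309 and 315 in mECC and 141, 138, 138 and 139 in normal cells. Both lines lay above normal cells in every library, by 2.44-fold in HPmECC (adjusted p = 1.27e-17) and 2.18-fold in mECC (adjusted p = 1.09e-16), and HPmECC lay slightly above mECC. Hk2, the inducible hexokinase and a HIF and Myc target in textbooks, had 90.2, 88.8, 91.9 and 100.2 CPM in the 4 HPmECC libraries, 94.6, 99.2, 102 and 101 in mECC and 232, 252, 228 and 239 in normal cells. Both lines lay under normal cells in every library, by 2.56-fold in HPmECC (adjusted p = 1.65e-16) and 2.39-fold in mECC (adjusted p = 4.72e-16). HPmECC and mECC overlapped, and the small difference between them (log2 fold change -0.10 ± 0.04, adjusted p = 0.0403) did not pass on TPM with limma (adjusted p = 0.064 to 0.0894) or when HPmECC replicate 1, 2 or 3 or mECC replicate 2, 3 or 4 was left out, with adjusted p between 0.0647 and 0.137. Gpi1, which isomerises glucose 6-phosphate, averaged 593 ± 68.2 CPM in HPmECC, 416 ± 9.8 in mECC and 455 ± 5.7 in normal cells. It was higher in HPmECC than in mECC (0.51 ± 0.05, adjusted p = 7.74e-08) and than in normal cells (0.38 ± 0.05, adjusted p = 1.86e-06). In mECC it was lower than in normal cells by a log2 fold change of -0.13 ± 0.05 (adjusted p = 0.0278), which became 0.11 (adjusted p = 0.0564) with library totals and did not pass without mECC replicate 2 or 4 or normal replicate 1 or 4 (adjusted p 0.0516 to 0.0797).

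The phosphofructokinase step, the main control point of glycolysis, changed its mix of subunit genes. Pfkp, the platelet-type subunit, had 165, 150.3, 147 and 155 CPM in the 4 HPmECC libraries, 30.9, 31.1, 31.9 and 31.8 in mECC and 84.1, 90.6, 88.1 and 93.8 in normal cells. Every HPmECC library lay above every normal one, and every mECC library below: the gene stood 4.91-fold above mECC in HPmECC (adjusted p = 1.25e-18), 1.73-fold higher in HPmECC than in normal cells (adjusted p = 3.29e-13) and 2.84-fold lower in mECC than in normal cells (adjusted p = 8.74e-17). Pfkm, the muscle-type subunit, had 135, 143, 138 and 136 CPM in the 4 HPmECC libraries, 106, 118, 108 and 111 in mECC and 15.7, 12.5, 12.7 and 16.2 in normal cells. It was high in both lines, 9.64-fold above normal cells in HPmECC (adjusted p = 1.37e-19) and 7.75-fold in mECC (adjusted p = 7.72e-19). Pfkl, the liver-type subunit, averaged 265 ± 37.3 CPM in HPmECC, 192 ± 5.5 in mECC and 262 ± 9.3 in normal cells, and was higher in HPmECC than in mECC (0.47 ± 0.06, adjusted p = 3.46e-06). In HPmECC its difference from normal cells was 0.02 ± 0.06 (adjusted p = 0.765), and the call depended on the setting. It passed as lower without replicate 4 of HPmECC (-0.08, adjusted p = 0.0359), and as higher with library totals (0.22, adjusted p = 0.00355) and on TPM with limma (0.32, adjusted p = 0.00079 to 0.00137). Exons of Pfkp overlap those of Pitrm1 on the opposite strand over 748 bases and exons of Pfkm overlap those of Senp1 over 18 bases, so without a stated strand setting their counts are uncertain to that extent.

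Pfkfb3 and Pfkfb4 encode the bifunctional enzymes that make fructose 2,6-bisphosphate, the activator of phosphofructokinase. Pfkfb3 had 88.8, 88.7, 87.7 and 89.4 CPM in the 4 HPmECC libraries, 63.6, 68.7, 65.5 and 69.96 in mECC and 170.3, 185, 162 and 181 in normal cells. No group overlapped another, with normal cells highest and mECC lowest; HPmECC was 1.97-fold lower than normal cells (adjusted p = 1.91e-14) and 1.32-fold higher than mECC (adjusted p = 6.05e-08). Pfkfb4 averaged 17.1 ± 0.60 CPM in HPmECC, 14.99 ± 0.55 in mECC and 11.7 ± 0.81 in normal cells, and passed as higher in both lines than in normal cells. Its smaller rise in HPmECC over mECC (0.19 ± 0.06, adjusted p = 0.00858) did not pass on TPM values with limma (adjusted p 0.14 to 0.219).

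From aldolase to pyruvate kinase, all 9 members rose in HPmECC over mECC, by log2 fold changes of 0.34 to 2.27. Aldoc, the brain-type aldolase, had 49.2, 50.6, 48.3 and 68.2 CPM in the 4 HPmECC libraries, 10.7, 11.4, 11.6 and 11.02 in mECC and 4.67, 5.19, 4.52 and 5.51 in normal cells. The groups were fully separate, with HPmECC 4.83-fold above mECC (adjusted p = 2.73e-13) and 10.8-fold above normal cells (adjusted p = 1.43e-15). Aldoa, the main aldolase, was far more abundant on the per-length scale, at 1992 ± 146 TPM in HPmECC, 1447 ± 38.3 in mECC and 1757 ± 33.2 in normal cells. It rose in HPmECC over mECC (0.55 ± 0.04, adjusted p = 5.15e-10) and was lower in mECC than in normal cells (-0.54 ± 0.04, adjusted p = 2e-10). In HPmECC its difference from normal cells was 0.01 ± 0.04 (adjusted p = 0.847), but it passed as higher with library totals (0.20, adjusted p = 7.97e-05) and on TPM with limma (0.18, adjusted p = 0.00488 to 0.0061). Eno2, the neuronal enolase, averaged 8.91 ± 1.4 CPM in HPmECC, 4.17 ± 0.53 in mECC and 1.39 ± 0.13 in normal cells. It was higher in HPmECC than in mECC (2.13-fold, adjusted p = 2.8e-07) and than in normal cells (6.29-fold, adjusted p = 7.82e-12), but HPmECC replicate 4 was the lowest of its group at 6.85 CPM.

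Eno1, the ubiquitous enolase, had 1851, 1933, 1888 and 2331 CPM in the 4 HPmECC libraries, 1273, 1217, 1297 and 1158 in mECC and 2746, 2694, 2677 and 2691 in normal cells. Normal cells were highest in every library and mECC lowest, so that Eno1 was lower in HPmECC than in normal cells (-0.43 ± 0.05, adjusted p = 4.44e-07) while Eno2 was higher. Pgk1, which makes the first ATP of glycolysis, had 1243, 1304, 1285 and 1641 CPM in the 4 HPmECC libraries, 823, 781, 833 and 744 in mECC and 1013, 1051, 979 and 1049.7 in normal cells. HPmECC lay above both other groups in every library, and mECC was lower than normal cells (-0.36 ± 0.06, adjusted p = 3.35e-05), a call lost with library totals (adjusted p = 0.0744) and on TPM with limma (adjusted p = 0.18 to 0.251). Pgam1, the phosphoglycerate mutase, averaged 1119 ± 133 CPM in HPmECC, 716 ± 28.96 in mECC and 948 ± 21.4 in normal cells, with the same order of groups. Its rise in HPmECC over normal cells (0.24 ± 0.06, adjusted p = 0.000656) was 0.16 (adjusted p = 0.00013) without HPmECC replicate 4, and its lower level in mECC did not pass on TPM with limma at a pseudocount of 0.1 or without a filter (adjusted p = 0.0548 and adjusted p = 0.0746). Tpi1, which interconverts the triose phosphates, averaged 1105 ± 107 CPM in HPmECC, 786 ± 24.6 in mECC and 806 ± 21.5 in normal cells. It was higher in HPmECC than in normal cells (0.46 ± 0.05, adjusted p = 4.42e-08), while its difference in mECC was -0.04 ± 0.05 (adjusted p = 0.489), and 0.20 (adjusted p = 0.000518) with library totals.

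Gapdh, the dehydrogenase often used as a loading control, had 3609, 3633, 3720.1 and 4648 CPM in the 4 HPmECC libraries, 3098, 2935, 3249 and 3054 in mECC and 3591, 3619, 3548 and 3628 in normal cells. HPmECC libraries lay above mECC libraries (log2 fold change 0.34 ± 0.06, adjusted p = 4.14e-05). Against normal cells it was lower in mECC (-0.22 ± 0.06, adjusted p = 0.00163), but 0.02 (adjusted p = 0.76) with library totals, and in HPmECC the difference of 0.12 ± 0.06 did not pass (adjusted p = 0.0654), though it did with library totals (0.31, adjusted p = 4.13e-05), without a filter on low counts (0.15, adjusted p = 1.74e-07), on TPM with limma (0.28, adjusted p = 0.00329 to 0.00561) and without HPmECC replicate 1, 2 or 3 (0.14 to 0.16, adjusted p = 0.0211 to 0.0418). Without HPmECC replicate 4 that difference was 0.03 (adjusted p = 0.309). Near-identical copies share reads with Gapdh: 90 other genes held 6.78% of its counts in HPmECC, 6.75% in mECC and 7.17% in normal cells, and 4 copies of Pgk1 held 9.45%, 9.14% and 9.85%. Pkm, the pyruvate kinase whose splice forms are not told apart in gene counts, averaged 2744 ± 259 CPM in HPmECC, 1803 ± 37.9 in mECC and 2128 ± 28.3 in normal cells. It was higher in HPmECC than in mECC (0.61 ± 0.04, adjusted p = 6.92e-10), while mECC was lower than normal cells by -0.24 ± 0.04 (adjusted p = 6.15e-05), which became 0.00 (adjusted p = 0.974) with library totals.

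Pyruvate stands at a fork between lactate and the mitochondrion, and the genes at this fork separated the 2 lines. Ldha, the lactate dehydrogenase subunit that favours lactate formation, had 1529, 1620.1, 1560.3 and 1995 CPM in the 4 HPmECC libraries, 938, 864, 937 and 840.1 in mECC and 1710.0, 1689.8, 1629 and 1707 in normal cells. All HPmECC libraries were above all mECC libraries, by 1.87-fold (adjusted p = 2.6e-10), and mECC was 1.88-fold below normal cells (adjusted p = 6.8e-11). HPmECC overlapped normal cells, with a log2 fold change of -0.01 ± 0.06 (adjusted p = 0.924) that was 0.19 (adjusted p = 0.00737) with library totals and -0.09 (adjusted p = 0.0211) without replicate 4 of HPmECC. Ldhb, the subunit that favours lactate use, had 82.95, 82.6, 82.4 and 72.9 CPM in the 4 HPmECC libraries, 151, 159.7, 142 and 159.6 in mECC and 281, 295, 278 and 311 in normal cells. It ran the other way: HPmECC was lowest, 1.91-fold below mECC (adjusted p = 5.28e-12) and 3.63-fold below normal cells (adjusted p = 2.23e-17). Pdk1, the kinase that shuts off pyruvate dehydrogenase, had 185, 187, 185 and 237 CPM in the 4 HPmECC libraries, 132, 128, 137 and 129 in mECC and 49.4, 64.3, 50.3 and 55.05 in normal cells. The groups were separate, with HPmECC 1.51-fold above mECC (adjusted p = 8.51e-07) and 3.61-fold above normal cells (adjusted p = 6.48e-14).

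Of the 34 genes, the lactate exporter gene Slc16a3 had the largest difference of either line from normal cells. Slc16a3, which encodes the lactate exporter MCT4, had 22, 28, 18 and 35 counts in the 4 HPmECC libraries, 12, 18, 19 and 12 in mECC and 3747, 4731, 4110 and 5465 in normal cells. Read by read it was almost absent from both lines: it was 230.3-fold lower in HPmECC (adjusted p = 2.74e-24) and 405-fold lower in mECC (adjusted p = 4.33e-24) than in normal cells. Of the lines, HPmECC was 1.76-fold above mECC (adjusted p = 0.00168), at levels of 1.04 ± 0.17 CPM in HPmECC and 0.592 ± 0.093 in mECC. Slc16a1, the widespread transporter MCT1, had 89.1, 91.6, 92.1 and 94.01 CPM in the 4 HPmECC libraries, 62.6, 63.01, 62.7 and 62.00 in mECC and 160.2, 167, 156 and 152 in normal cells. Here the lines kept a sizeable part of the normal level, with HPmECC 1.73-fold and mECC 2.54-fold below it (adjusted p = 1.41e-14 and adjusted p = 6.08e-18) and HPmECC 1.47-fold above mECC (adjusted p = 3.14e-11). The normal libraries carried the higher marker sums of epithelial, smooth muscle, leukocyte and mesothelial cells given above, and their part in the Slc16a3 difference was not tested.

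The acid-handling carbonic anhydrases were lower in mECC than in both other groups. Car9, the hypoxia-induced membrane carbonic anhydrase, had 4.26, 3.68, 4.04 and 8.25 CPM in the 4 HPmECC libraries, 0.7697, 0.509, 0.471 and 0.511 in mECC and 5.15, 6.86, 4.74 and 5.004 in normal cells. HPmECC was 9.04-fold above mECC (adjusted p = 1.69e-08) and overlapped normal cells, with a log2 fold change of -0.09 ± 0.21 (adjusted p = 0.69) that was -0.44 (adjusted p = 0.0119) without HPmECC replicate 4 and 0.10 (adjusted p = 0.653) with library totals. Part of Car9 lies opposite the antisense gene Gm12454, whose counts came to 22.1% of those of Car9, so the count is uncertain without a strand setting. Car12, a related membrane enzyme, had 24.5, 23.6, 23.9 and 22.9 CPM in the 4 HPmECC libraries, 11.5, 13.1, 9.93 and 12.6 in mECC and 122, 126, 111 and 107 in normal cells. The groups did not overlap: HPmECC was 2.02-fold above mECC (adjusted p = 1.2e-09) and 4.897-fold below normal cells (adjusted p = 3.56e-17).

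Among the oxygen-sensing genes, the HIF alpha subunits moved apart. Hif1a, the main HIF alpha subunit, had 339, 334, 349 and 322 CPM in the 4 HPmECC libraries, 394, 408, 391 and 413 in mECC and 401, 459, 399 and 422 in normal cells. HPmECC was below both other groups in every library, by log2 fold changes of -0.26 ± 0.04 against mECC (adjusted p = 9.92e-06) and -0.32 ± 0.04 against normal cells (adjusted p = 2.86e-07). In mECC the difference from normal cells was -0.07 ± 0.04 (adjusted p = 0.116), and 0.17 (adjusted p = 0.000306) with library totals. It passed as lower in DESeq2 (-0.09, adjusted p = 0.0384), with median-of-ratios factors (-0.09, adjusted p = 0.0411) and without normal replicate 3 (-0.09, adjusted p = 0.0437). These are RNA levels, and HIF-1 alpha is controlled mainly through the stability of its protein. Epas1, which encodes HIF-2 alpha, had 6.01, 4.68, 5.35 and 5.56 CPM in the 4 HPmECC libraries, 0.513, 0.581, 0.652 and 0.426 in mECC and 14.6, 10.1, 12.01 and 12.2 in normal cells. It was rare in all groups and rarest in mECC, with HPmECC 9.74-fold above mECC (adjusted p = 9.69e-12) and 2.25-fold below normal cells (adjusted p = 1.41e-08). In TPM it averaged 1.65 ± 0.17 TPM in HPmECC, 0.412 ± 0.14 in mECC and 3.92 ± 1.6 in normal cells.

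The prolyl hydroxylase genes Egln1 and Egln3, which encode PHD2 and PHD3, differed in how far they moved. Egln3, itself strongly induced by HIF, had 28.2, 31.6, 35.9 and 52.5 CPM in the 4 HPmECC libraries, 6.03, 6.69, 7.54 and 6.09 in mECC and 38.9, 43.2, 29.4 and 38.8 in normal cells. Every mECC library lay far below the rest, with HPmECC 5.62-fold above mECC (adjusted p = 4.92e-10) and mECC 5.68-fold below normal cells (adjusted p = 1.86e-10). HPmECC overlapped normal cells, at a log2 fold change of -0.02 ± 0.15 (adjusted p = 0.921), or -0.24 (adjusted p = 0.0356) without HPmECC replicate 4 and 0.18 (adjusted p = 0.244) with library totals. Egln1, the main oxygen sensor in most cells, averaged 148 ± 24.7 CPM in HPmECC, 126 ± 4.5 in mECC and 130.3 ± 7.4 in normal cells. It passed as higher in HPmECC than in mECC (0.23 ± 0.08, adjusted p = 0.0133), though not in DESeq2 (adjusted p = 0.0599) or on TPM with limma (adjusted p = 0.197 to 0.305), and without HPmECC replicate 4 the log2 fold change was 0.11 (adjusted p = 0.0236). It also passed as higher than in normal cells (0.18 ± 0.08, adjusted p = 0.0377). That call was lost without HPmECC replicate 4 (0.06, adjusted p = 0.169), without normal replicate 1, 3 or 4 (adjusted p = 0.0506 to 0.117), and in DESeq2, with median-of-ratios factors, with the 10 CPM minimum and in a fit of those 2 groups alone (adjusted p = 0.0523 to 0.19). In mECC its difference from normal cells was -0.05 ± 0.08 (adjusted p = 0.576), and 0.19 (adjusted p = 0.0252) with library totals.

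Against normal cells, the remaining hypoxia response genes fell into 2 patterns. Bnip3, which drives mitophagy, had 162, 171, 166 and 231 CPM in the 4 HPmECC libraries, 84.03, 87.4, 86.1 and 76.98 in mECC and 138, 155, 130.1 and 149.8 in normal cells. HPmECC was above both other groups in every library, 2.18-fold above mECC (adjusted p = 1.84e-09) and 1.27-fold above normal cells (adjusted p = 0.0011). The log2 fold change of 0.35 ± 0.09 against normal cells was 0.22 (adjusted p = 0.000586) without HPmECC replicate 4. Ankrd37, a small ankyrin-repeat gene induced by HIF, had 6.61, 9.47, 8.66 and 14.8 CPM in the 4 HPmECC libraries, 2.27, 2.94, 3.01 and 2.72 in mECC and 8.53, 9.14, 8.65 and 6.84 in normal cells. HPmECC stood 3.62-fold above mECC (adjusted p = 1.52e-07). The gene overlapped between HPmECC and normal cells (adjusted p = 0.163), and shares exonic bases with Ufsp2 and Lrp2bp on the opposite strand, so its low counts are uncertain. Its log2 fold change from normal cells, 0.27 ± 0.18, was 0.01 (adjusted p = 0.952) without HPmECC replicate 4. It passed without HPmECC replicate 1 (0.43, adjusted p = 0.0185), with library totals (0.47, adjusted p = 0.0198) and without a filter on low counts (0.31, adjusted p = 0.00838).

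Ndrg1 and Adm instead stayed far below the normal level in both lines. Ndrg1, a stress-induced differentiation gene, had 130.4, 129.8, 142 and 161 CPM in the 4 HPmECC libraries, 79.4, 81.6, 81.3 and 80.00 in mECC and 467, 492, 469.7 and 504 in normal cells. The groups were separate, with HPmECC 3.43-fold (adjusted p = 1.1e-16) and mECC 5.99-fold (adjusted p = 7.04e-19) below normal cells. Adm, which encodes the vasodilator peptide adrenomedullin, had 1.32, 1.57, 1.89 and 1.11 CPM in the 4 HPmECC libraries, 1.33, 1.13, 1.305 and 1.11 in mECC and 103, 101, 96.5 and 99.03 in normal cells. It was 68.8-fold lower in HPmECC (adjusted p = 2.18e-22) and 81.8-fold lower in mECC (adjusted p = 2.31e-22) than in normal cells, and the lines overlapped, with a log2 fold change of 0.25 ± 0.16 that did not pass (adjusted p = 0.206).

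Within gene families, the share of TPM held by each member shows the change of mix without depending on the scaling between libraries. The 12 shares were compared in 3 comparisons by a two-sided exact permutation test over libraries, in which 4 against 4 cannot give a p below 0.0286, and this value is 0.0343 after Benjamini-Hochberg adjustment over the 36 comparisons. The share of Hk2 in Hk1 and Hk2 together was 15.8% ± 0.38 in HPmECC, 17.98% ± 0.30 in mECC and 53.4% ± 1.2 in normal cells. Hk1 was thus the main form in both lines. Among the phosphofructokinase genes, Pfkm held 26.2% ± 1.5 in HPmECC, 36.6% ± 1.4 in mECC and 4.98% ± 0.64 in normal cells. Pfkp held 28.01% ± 2.2 in HPmECC, 9.703% ± 0.70 in mECC and 25.6% ± 1.2 in normal cells. Pfkl, the largest share in each group, held 45.8% ± 3.0 in HPmECC, 53.7% ± 1.5 in mECC and 69.4% ± 0.67 in normal cells. Each of these shares differed between groups without overlap at the adjusted exact permutation p of 0.0343, apart from Pfkp in HPmECC and normal cells.

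The Ldhb share of Ldha and Ldhb was 5.77% ± 0.91 in HPmECC, 18.04% ± 1.6 in mECC and 18.4% ± 0.63 in normal cells. It set HPmECC apart from both other groups without overlap, while mECC and normal cells overlapped (exact permutation p = 0.686). The Slc16a3 share of the monocarboxylate transporter pair was 2.697% ± 0.74 in HPmECC, 1.398% ± 0.33 in mECC and 79.6% ± 1.2 in normal cells, so Slc16a1 held most of the pair in both lines and Slc16a3 most of it in normal cells. On expected counts the difference between the lines in this share did not pass (exact permutation p = 0.2). The Egln3 share of Egln1 and Egln3 was 25.4% ± 2.4 in HPmECC, 6.702% ± 0.59 in mECC and 28.3% ± 2.2 in normal cells, and mECC lay below both other groups without overlap.

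In 10 of 12 shares HPmECC and mECC differed without overlap, and the same count held in each comparison with normal cells. The shares of Pfkl, Pfkm and Pfkp add up to the whole in each library, so they are not separate results. How often shares in other gene families separate these groups was not counted, so the count is not read as a trait of these genes. The exceptions were Pfkfb3 and Eno2 between the lines (exact permutation p = 0.143 and 0.229), Ldhb and Slc2a3 in mECC against normal cells (0.686 and 0.0857), and Pfkp and Egln3 in HPmECC against normal cells (0.143 and 0.114). The other shares were small: Aldoc held 2.58% ± 0.27 in HPmECC, 0.804% ± 0.029 in mECC and 0.2498% ± 0.037 in normal cells, Slc2a3 3.29% ± 0.27 in HPmECC, 0.578% ± 0.49 in mECC and 1.29% ± 0.24 in normal cells and Epas1 1.31% ± 0.14 in HPmECC, 0.264% ± 0.091 in mECC and 2.79% ± 1.2 in normal cells. Pfkfb3 held 79.6% ± 2.2 in HPmECC, 77.6% ± 0.58 in mECC and 91.6% ± 0.65 in normal cells, and Eno2 held 0.543% ± 0.11 in HPmECC, 0.434% ± 0.090 in mECC and 0.0621% ± 0.015 in normal cells. Abundance on the per-length scale was ruled by the common forms Aldoa, Eno1 and Ldha in all groups.

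**Figure D3:**
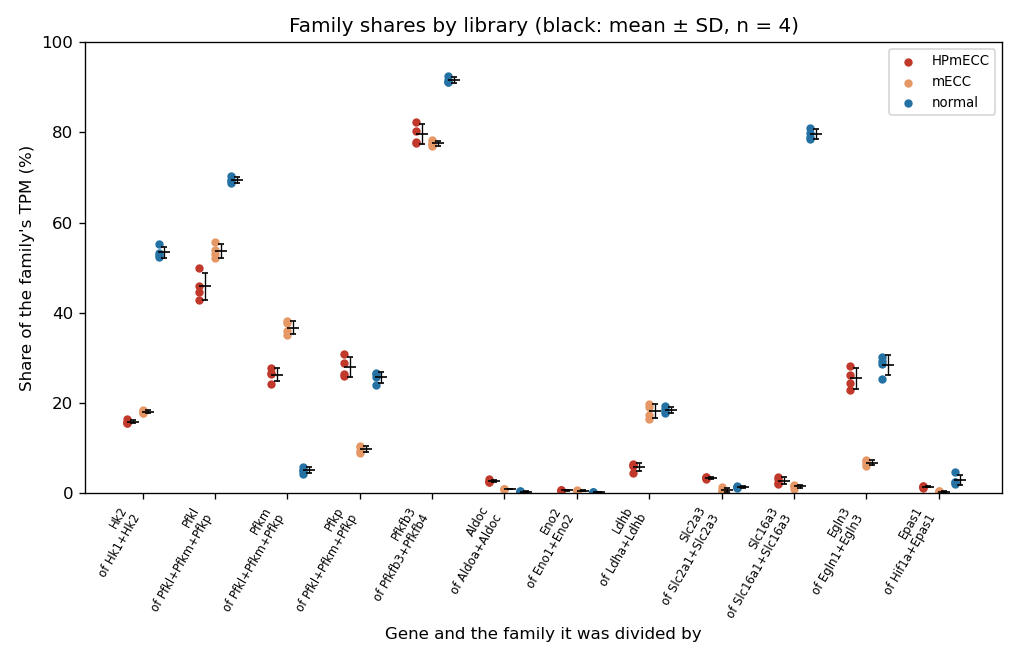
Share of its family's TPM (percent) held by each gene named on the axis, with 1 point for each of 4 libraries in HPmECC, mECC and normal cells, and the mean ± SD in black. Hk2 and Slc16a3 hold most of their pair in normal cells only (53.4% and 79.6%), Pfkm rises in both lines, and Ldhb is lowest in HPmECC (5.77%).

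The 17 enzyme genes from hexokinase to lactate dehydrogenase together made up 1.80% ± 0.19 of all TPM in HPmECC, 1.301% ± 0.040 in mECC and 1.49% ± 0.02 in normal cells. The single HPmECC libraries stood at 1.68%, 1.72%, 1.71% and 2.09%, all above the highest mECC library (1.34%) and the highest normal library (1.51%). Replicate 4 was the highest, and the other 3 HPmECC libraries were close together. In that library the ratio to the mean of the other 3 was 2.06 for Car9, 1.79 for Ankrd37, 1.65 for Egln3, 1.39 for Bnip3 and 1.38 for Aldoc. The main glycolytic enzymes Ldha, Gapdh, Pgk1, Pgam1 and Eno1 had ratios of 1.23 to 1.29. Adm, Eno2, Ldhb, Hif1a and Car12 were instead lowest in that library, at 0.693, 0.714, 0.881, 0.9455 and 0.952. A cause for the higher values in this library was not tested, and mitochondrial transcripts made up 1.37% of its counts, within the 1.28% to 1.43% of the group.

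**Figure D4:**
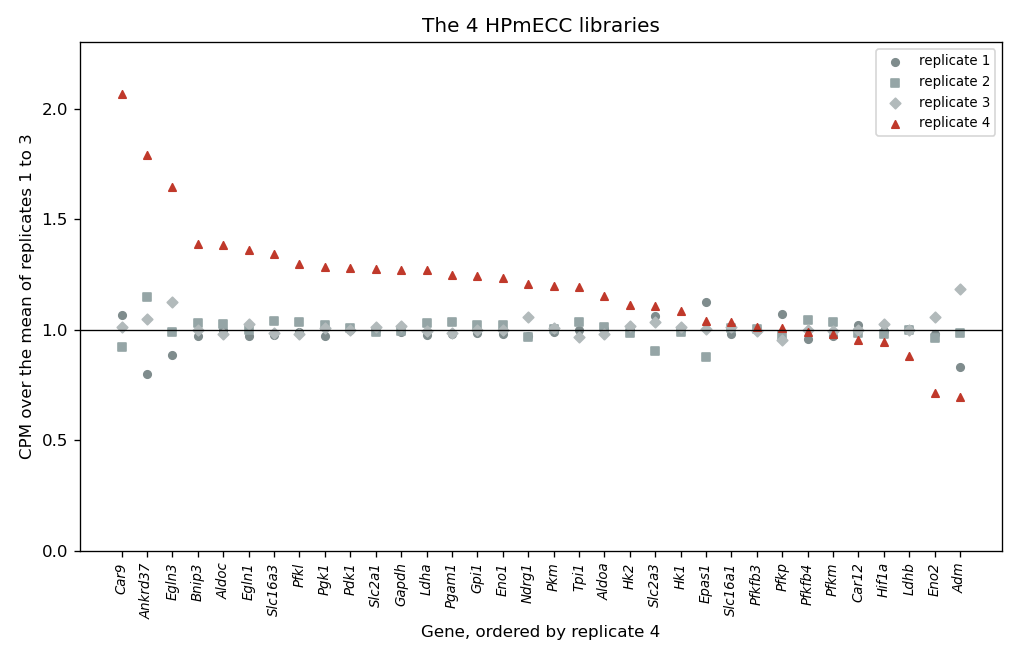
CPM of each gene in each of the 4 HPmECC libraries, divided by the mean of replicates 1 to 3, with genes in order of the value in replicate 4 and a line at 1. Replicate 4 (triangles) lies at 2.06 for Car9 and at 0.693 for Adm, the ends of its range.

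The genes around the module did not all follow it. Of 18 tested of 23 other glycolytic and gluconeogenic enzymes, 6 rose (background 33.8% of all tested genes) and 5 fell (background 34.5%) in HPmECC against mECC, with a median log2 fold change of -0.01, so both counts were near the background. Eno3, the muscle enolase, averaged 104 ± 2.5 CPM in HPmECC, 38.9 ± 1.2 in mECC and 5.85 ± 0.91 in normal cells, 2.67-fold higher in HPmECC than in mECC (adjusted p = 3.34e-15) and 18.01-fold higher than in normal cells (adjusted p = 5.55e-21). Pfkfb2, a further isoform of the bifunctional enzyme, and G6pc3, a glucose 6-phosphatase, fell in HPmECC by 2.09-fold and 1.92-fold (adjusted p = 1.48e-10 and adjusted p = 1.1e-09). Against normal cells, 9 of the list were higher (background 43%) and 8 lower (background 43.3%) in HPmECC, and 8 were higher (background 42.1%) and 9 lower (background 44.2%) in mECC. Pck2, the mitochondrial enzyme that makes phosphoenolpyruvate, was 3.75-fold higher in HPmECC (adjusted p = 1.09e-13) and 2.31-fold higher in mECC (adjusted p = 1.86e-10) than in normal cells, and Tigar, which lowers fructose 2,6-bisphosphate, was 2.37-fold lower in mECC (adjusted p = 1.68e-14).

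Among 12 tested of 15 other glucose, lactate and pyruvate transporters, 3 rose (background 33.8%) and 3 fell (background 34.5%) in HPmECC against mECC. Slc2a6, a glucose transporter family member, rose 4.44-fold (adjusted p = 3.51e-09). Bsg, the chaperone that carries the monocarboxylate transporters to the membrane, rose 1.36-fold (adjusted p = 5.61e-07), and its relative Emb fell 1.29-fold (adjusted p = 1.61e-05). Against normal cells, 3 were higher (background 43%) and 7 lower (background 43.3%) in HPmECC, and 2 were higher (background 42.1%) and 8 lower (background 44.2%) in mECC. Slc5a1, the sodium-coupled glucose transporter, had 0, 0, 0 and 1 counts in the 4 HPmECC libraries, 0, 0, 0 and 0 in mECC and 617, 799, 785 and 887 in normal cells. Slc2a12, a further glucose transporter, had 3, 3, 2 and 4 counts in the 4 HPmECC libraries, 1, 1, 1 and 3 in mECC and 233, 262, 251 and 316 in normal cells. Both were thus at or near 0 in the lines, and no fold is given. Slc16a6, a monocarboxylate transporter family member, was 12.5-fold lower in HPmECC (adjusted p = 4.62e-13) and 7.27-fold lower in mECC (adjusted p = 4.45e-12) than in normal cells.

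The list of the pyruvate dehydrogenase complex and its regulators had 12 tested genes, of which 6 rose (background 33.8%) and 2 fell (background 34.5%) in HPmECC against mECC. Pdk4, a further kinase of the complex, moved against Pdk1: it averaged 5.51 ± 0.12 CPM in HPmECC, 14.5 ± 0.91 in mECC and 3.396 ± 0.36 in normal cells and fell 2.63-fold in HPmECC against mECC (adjusted p = 1.71e-11). Pdha1, a catalytic subunit, rose 1.39-fold (adjusted p = 2.65e-12) and Pdhx, a structural one, fell 1.31-fold (adjusted p = 4.8e-07). Against normal cells, 10 were higher (background 43%) and 2 lower (background 43.3%) in HPmECC, and 8 were higher (background 42.1%) and 3 lower (background 44.2%) in mECC. The kinase Pdk2 was 5.23-fold higher in HPmECC (adjusted p = 2.85e-14) and 5.51-fold higher in mECC (adjusted p = 1.53e-14), the phosphatase Pdp1 was 4.18-fold higher in HPmECC (adjusted p = 1.23e-16), and Ldhd, the dehydrogenase of D-lactate, was 4.13-fold lower in HPmECC (adjusted p = 2.92e-11) and 7.001-fold lower in mECC (adjusted p = 6.94e-13).

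In the pentose phosphate pathway, which branches off at glucose 6-phosphate, 5 of 8 tested genes rose (background 33.8%) and 3 fell (background 34.5%) in HPmECC against mECC. G6pdx, its entry enzyme, rose 1.38-fold (adjusted p = 5.74e-09) and Rpia, an isomerase, rose 1.34-fold (adjusted p = 7.87e-05), while H6pd, the entry enzyme of the endoplasmic reticulum, fell 1.38-fold (adjusted p = 4.74e-10). Both lines lay below normal cells in most of this list, with 7 of 8 lower in HPmECC (background 43.3%) and in mECC (background 44.2%). H6pd averaged 92.8 ± 0.98 CPM in HPmECC, 128 ± 3.4 in mECC and 1149.6 ± 52.6 in normal cells. Taldo1 and Tkt, of the non-oxidative branch, were 2.74-fold and 1.53-fold lower in HPmECC than in normal cells (adjusted p = 9.64e-20 and adjusted p = 6.71e-13), and 3.07-fold and 1.95-fold lower in mECC (adjusted p = 2.36e-20 and adjusted p = 7.5e-16).

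Of 39 tested genes among 40 other hypoxia pathway and response genes, 24 rose (background 33.8%) and 10 fell (background 34.5%) in HPmECC against mECC, with a median log2 fold change of 0.33. Ero1a, an oxidase of protein folding, averaged 121 ± 20.8 CPM in HPmECC, 33.02 ± 3.4 in mECC and 164 ± 4.9 in normal cells and stood 3.65-fold higher in HPmECC over mECC (adjusted p = 3.22e-12). Angptl4, a secreted inhibitor of lipoprotein lipase, and Arnt2, a partner of the HIF alpha subunits, went the other way, 7.03-fold and 3.61-fold lower in HPmECC (adjusted p = 1.77e-15 and adjusted p = 2.7e-13). Against normal cells the list was mixed, with 20 higher (background 43%) and 18 lower (background 43.3%) in HPmECC and 13 higher (background 42.1%) and 23 lower (background 44.2%) in mECC. Ppp1r3c, a glycogen-targeting phosphatase subunit, had 507, 689, 400 and 717 counts in the 4 HPmECC libraries, 810, 994, 784 and 876 in mECC and 3, 4, 5 and 4 in normal cells, so it was close to absent in normal cells. Arnt2 was 30.3-fold lower in HPmECC than in normal cells (adjusted p = 8.62e-22), and Rora, a nuclear receptor, was 11.7-fold lower in HPmECC (adjusted p = 3.63e-14) and 31.2-fold lower in mECC (adjusted p = 2.39e-15).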

How the data were processed

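RNA of 12 cell samples (4 each of HPmECC, mECC and normal) was extracted with RNeasy kits and made into TruSeq mRNA libraries, per the labels' protocols. Trim Galore, STAR 2.6.1a, RSEM 1.3.1 and build GRCm38 are named in the submitters' processing notes, with no annotation release or strand setting given in the sources used here. The authors deposited RSEM expected counts, already whole numbers, and TPM and FPKM values scaled by the authors to transcript length. Per the file headers, columns carry the title codes, which mapped each column to a sample. Of the 55385 identifiers, 55144 matched a symbol; Aldoa has 2 identifiers, and the one with more counts was used.

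Counts were tested with the quasi-likelihood test of edgeR 4.0.16 (R 4.3.3) over all 12 libraries, with TMM factors, filterByExpr at a minimum of 10 counts and Benjamini-Hochberg adjustment over 15283 genes at 0.05. The biological coefficient of variation was 4.27%. CPM values are TMM-scaled, errors after ± are SD over 4 libraries for levels and SE for log2 fold changes, and p-values given with a gene are adjusted. Family shares of TPM were tested with exact permutation tests (scipy 1.17.1). Alternatives were DESeq2 1.42.0 and its factors within edgeR, library totals, other filters, limma 3.58.1 on log2 TPM with a pseudocount of 1 or 0.1, a fit restricted to the 2 groups at issue, a replicate block, FPKM or counts in the shares, Eno1 counted with Eno1b, and each library left out. Near-identical copies (at least 95% identity over 200 bases, blastn 2.17.0) were added to the member as an alternative chosen after seeing the data. Coordinates came from GENCODE on GRCm38, and promoter windows of 250 bases before to 50 after the start site from RefSeq. The test was checked on simulated counts.

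The members and lists were chosen with earlier results of these data known. All 34 members are named; of each neighbouring list, the 3 called genes that changed most were named per comparison, given 5 CPM or more in whichever group was higher. A gene that this rule names is not reported here. Library pairs within groups differed by more than sampling noise and none was identical. Same-numbered libraries did not deviate together, so numbers were not used as pairs.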

Additional observations from a re-analysis of the deposited data

Results flagged for a closer look

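In 102 groups of 4 values (34 genes in 3 groups), 14 held a library far from the other 3 by Dixon's ratio, where chance flags about 5% of groups. Replicate 4 of HPmECC was that library in 12 of the 14, above the other 3 in 11 genes and below them in 1. Its CPM values were 140.1 for Slc2a1 (the others 108.8 to 111.5), 694.3 for Gpi1 (549.3 to 569.7), 68.22 for Aldoc (48.28 to 50.58) and 4648 for Gapdh (3609 to 3720). They were 1641 for Pgk1 (1243 to 1304), 2331 for Eno1 (1851 to 1933), 3132 for Pkm (2591 to 2633) and 237.2 for Pdk1 (184.8 to 186.7). Among acid-handling and hypoxia genes they were 8.251 for Car9 (3.682 to 4.263), 184.5 for Egln1 (131.7 to 139.2) and 231 for Bnip3 (161.7 to 171.4). Ldhb was the exception, lowest in that library at 72.86 CPM (82.45 to 82.95). The other 2 were Pfkl in mECC replicate 3, at 200.1 CPM beside 188.6 to 189.4, and Car9 in mECC replicate 1, at 0.7697 CPM beside 0.4711 to 0.5107, where Car9 had 12 to 18 counts in a library. The cause of the HPmECC replicate 4 values was not tested.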

How the results depend on the processing

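The counts of called members kept within 1.5 times of their reported values under all alternatives run, with these exceptions. With at least 10 CPM in 4 libraries, 6 members rose at least 2-fold in HPmECC against mECC, against 10 reported. Eno2, Car9, Epas1 and Ankrd37 did not reach that minimum and were then not tested. On TPM with limma at either pseudocount or without a filter, 1 member (Ldhb) fell at least 2-fold, against 0 reported. The Hk2, Pfkfb4 and Egln1 calls between the lines, and the Slc16a3 share, were lost under alternatives named with them above. On expected counts the shares of Pfkfb3 between the lines, Slc2a3 in mECC against normal cells and Pfkp in HPmECC against normal cells passed as well (exact permutation p = 0.0286).

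Signs turned only in genes close to 0, all of them in comparisons with normal cells. In mECC, log2 fold changes with library totals were 0.109 for Gpi1, 0.205 for Tpi1, 0.019 for Gapdh, 0.001 for Pkm, 0.174 for Hif1a and 0.193 for Egln1. On TPM with limma at a pseudocount of 1, with or without a filter, they were 0.097, 0.217, 0.015, 0.024, 0.175 and 0.197 in the same order, and at 0.1 they were 0.097, 0.217, 0.015, 0.024, 0.176 and 0.200. Without a filter on low counts Tpi1 stood at 0.002. In HPmECC, Pfkl was -0.017 with median-of-ratios factors and -0.018 in DESeq2, and Aldoa was -0.030 in both and -0.005 with the 10 CPM minimum; both were higher with library totals and on TPM, with the values given above. With library totals Ldha, Car9 and Egln3 were 0.189, 0.102 and 0.179; on TPM they were 0.162, 0.193 and 0.125 at a pseudocount of 1 and 0.162, 0.226 and 0.130 at 0.1. Without a filter Ldha and Egln3 were 0.028 and 0.018. With single libraries left out, the ranges against normal cells were -0.077 to 0.067 for Pfkl, -0.039 to 0.039 for Aldoa, -0.094 to 0.039 for Ldha, -0.443 to 0.048 for Car9 and -0.236 to 0.099 for Egln3. Apart from library totals and the replicate left out, the cause was not tested.

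Deviations of same-numbered libraries correlated at -0.128 to 0.196, and 4 of 12 correlated best with their own number. With the replicate number as a block, 30 members rose and 3 fell in HPmECC against mECC, and no call of a member changed in any comparison. Depth limits the genes with few reads: Slc16a3, Car9, Epas1 and Slc2a3 had at most 19 counts in any mECC library, so their folds rest on few reads.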
